A study of Mus musculus with 9 samples.

Results

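The enzymes that break down glucose were described here as 50 gene symbols of glycolysis, the pentose phosphate pathway, pyruvate dehydrogenase and the tricarboxylic acid (TCA) cycle, with the carriers that bring in glucose and move lactate. The symbols were looked up by name in the 9 deposited libraries, and 49 were found among 23309 gene symbols (pyruvate kinase is listed as Pkm and not as Pkm2). They comprise 22 genes of glycolysis and its transporters, 7 of pyruvate dehydrogenase and its kinases, 6 of the pentose phosphate pathway and 14 of the TCA cycle and related dehydrogenases. Of these, 48 had a mean of at least 1 FPKM (fragments relative to transcript length and library depth) over the 9 libraries and entered the test with 10497 genes in all. The member left out, Pfkfb3, had 0.504, 0.447 and 0.322 FPKM on BME at day 1, 0.477, 0.442 and 0.436 at day 5, and 0.923, 1.11 and 1.03 on BME + COL1.

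D2.0R is a mouse mammary tumour line, established from hyperplastic alveolar nodules, which is used as a model of dormancy. It rests when it is plated on basement membrane extract (BME), a laminin-rich gel made from a mouse sarcoma, and it proliferates when type I collagen (COL1) is mixed into that gel. The same line was sampled after 1 and 5 days on BME and after 5 days on BME + COL1, with 3 biological replicates (a, b and c) of each and no genetic change or drug named for any of them. All cultures were kept in low-glucose DMEM with fetal bovine serum and Cultrex, a commercial BME, and those on COL1 had collagen in the coating and in the medium. The collagen group has no day 1 sample, so in its comparison with BME at day 1 the matrix and the time cannot be told apart. These are populations of 1 cell line, in which fewer cells of a type and less RNA per cell cannot be told apart.

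Glycolysis turns glucose into pyruvate in the cytosol, and lactate dehydrogenase turns pyruvate into lactate. Pyruvate that enters mitochondria is made into acetyl-CoA by the pyruvate dehydrogenase complex, which pyruvate dehydrogenase kinases switch off, and acetyl-CoA feeds the TCA cycle. The pentose phosphate pathway leaves glycolysis at glucose 6-phosphate, where its oxidative branch makes NADPH and its non-oxidative branch makes ribose phosphate for nucleotides. Several steps have more than 1 isozyme. Proliferating tumour cells are known for high expression of Hk2, Ldha, Eno1 and the M2 form of pyruvate kinase, whereas Aldoc and Eno2 are best known from brain, and the M1 form of pyruvate kinase from muscle and brain.

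Aligned sequence came to 7.21 to 9.37 gigabases a library, and the depth of a gene sets its precision. The deposited intervals reached, in the median, 3.47% to either side of member values from 20 FPKM and 14.8% to either side of those under 5 FPKM. They cover counting error only. Replicate b of BME day 5 stood apart, with its median gene at -0.27 from the mean of the 9 libraries on the log2 scale. Its summed FPKM was 287611, beside 347339 to 367000 in the other BME libraries and 417944 to 423289 on BME + COL1. Every collagen library thus had a higher sum than every BME library, so rescaling to a common sum lowers collagen values relative to BME. Replicate b of BME day 5 had 4.88 FPKM of the proliferation gene Mki67 (18.5 and 14.6 in replicates a and c). Mki67 was at 14.1 to 17.9 FPKM on BME at day 1 and at 42.3 to 48.3 on BME + COL1. Short genes (under 300 nt) made up 7.25% of the FPKM in replicate a of BME day 5 and 0.440% to 2.12% elsewhere. Of 10 mammary epithelial markers, Krt8, Krt18, Krt7, Epcam and Cdh1 were present and 5 (Krt19, Cldn3, Cldn4, Cldn7 and Esrp1) stayed under 1 FPKM in every library. All 7 haematopoietic and all 5 endothelial markers stayed under 1 FPKM in every library, as did 4 of 7 fibroblast, 5 of 6 muscle and 3 of 4 brain markers. The fibroblast exceptions were Col1a1, Pdgfra and Pdgfrb, and the sum of that list was 20.1 to 27.9 FPKM on BME at day 1, 26.4 to 36.1 at day 5 and 4.52 to 4.70 on BME + COL1. The mammary epithelial sum was 1441 to 1604, 776 to 1154 and 2348 to 2455 FPKM in the same order. The muscle sum stayed under 1 FPKM in every BME library and was 3.39 to 3.90 FPKM on BME + COL1, where Acta1 was the exception. The part of these differences in the results below was not tested. How reads that match several places were counted is not given in the sources used here, and 13 of the 49 members have at least 1 copy elsewhere in the genome that covers 80% of the transcript at 90% identity. Gapdh has 106 such copies, Eno1 and Ldha 5 each, Pkm 4, Pgam1 3, Aldoa and Pgk1 2 each, and Tpi1, Ldhb, Pdhb, G6pdx, Taldo1 and Suclg2 1 each, and their values are uncertain to that extent.

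At day 5, 13 of 14 TCA members and the glycolytic enzymes Tpi1, Gapdh, Pgk1, Pgam1, Eno1 and Ldha were lower on BME than on BME + COL1, while a small set of isozymes and regulators, led by Pdk2, Eno2, Aldoc and Idh1, was higher. Pkm, the last step of glycolysis, was not called when its transcripts were summed. A gene was called when its adjusted p from limma was under 0.05, and a positive log2 difference means higher in the first group named. Of the 48 members, 10 were higher on BME, 29 were lower and 9 were not called. Among those higher, Pdk2, Eno2, Aldoc and Pdk1 were under 1 FPKM in every BME + COL1 library and entered the test through their BME values. Over all tested genes, 30.3% were higher and 45.3% were lower, with a median log2 difference of -0.18. The counts depended on the scaling, for members and for all genes. On TPM (FPKM rescaled to the same sum in each library) the median of all genes moved to 0.16. Then 16 members were higher and 21 lower, beside 4858 higher and 3327 lower of all 10497 tested genes. Without replicate b of BME day 5 the counts stayed at 10 and 29, beside 3609 and 4675 of all tested genes. Between day 1 and day 5 on BME fewer members were called, 4 higher and 19 lower at day 5. There 9.09% of all genes were higher and 22.2% were lower (median -0.15). Without replicate b of BME day 5 the members were 3 and 20, beside 1267 and 2626 of all 10497 tested genes. On BME + COL1 at day 5 against BME at day 1, 23 were higher and 11 lower, where 34.2% of all genes were higher and 31.8% were lower (median 0.03). On TPM 20 members were higher and 17 lower, beside 2638 and 4870 of all 10497 tested genes. The 3 comparisons share libraries, so their values are given side by side and are not independent of each other.

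**Figure D1:**
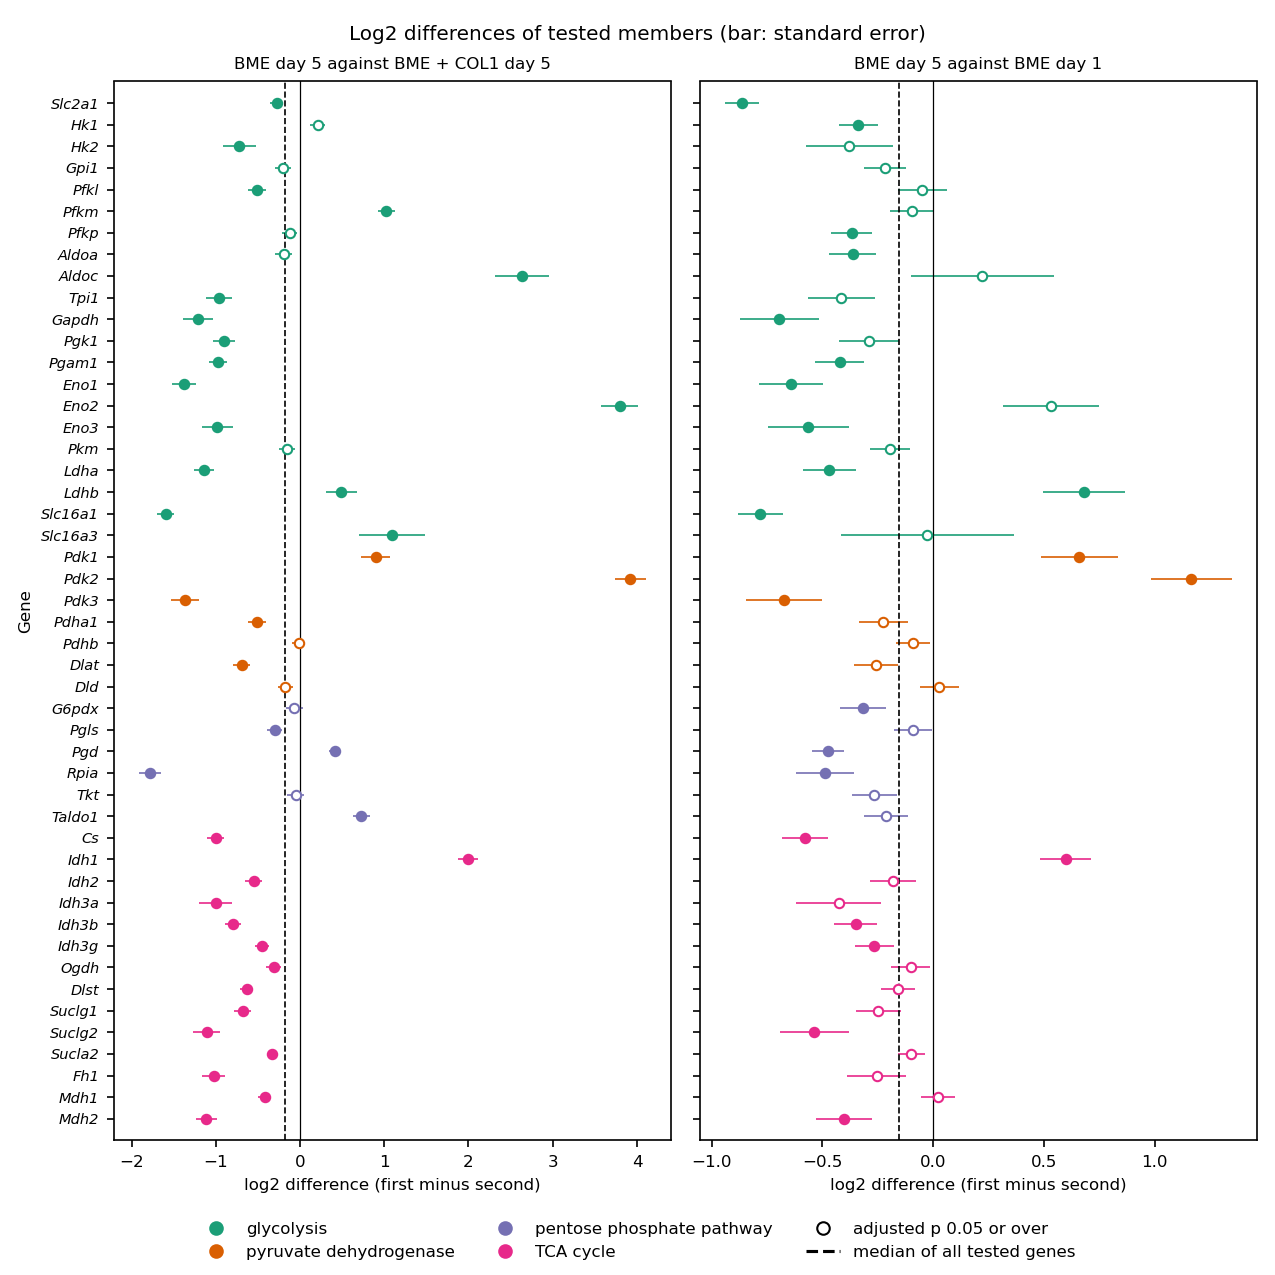
Log2 differences (horizontal axis, on the scale of log2 FPKM plus 0.1) of the 48 tested members, for BME day 5 against BME + COL1 day 5 (left) and BME day 5 against BME day 1 (right). Points are the fitted differences and bars their standard errors, filled points have an adjusted p under 0.05, colours give the pathway, and the dashed line is the median of all tested genes; Pdk2, Eno2, Aldoc and Idh1 lie far to the right on the left panel, where 13 of 14 TCA members lie to the left of the dashed line.

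Pyruvate kinase, the last step of glycolysis, is shown first by sequence, because its 2 transcripts differ by a single exon whose use separates the M1 from the M2 form. On mm9 the Pkm gene lies at chr9:59504175-59527182 on the plus strand. Its exon 9 of 11 is taken from chr9:59522836-59523002 in transcript NM_001253883 (M1) and from chr9:59523375-59523541 in NM_011099 (M2). Both versions are 167 bases long and 61.7% identical, and capitals mark the 64 positions at which they differ, read 5′ to 3′.
Pkm M1 exon: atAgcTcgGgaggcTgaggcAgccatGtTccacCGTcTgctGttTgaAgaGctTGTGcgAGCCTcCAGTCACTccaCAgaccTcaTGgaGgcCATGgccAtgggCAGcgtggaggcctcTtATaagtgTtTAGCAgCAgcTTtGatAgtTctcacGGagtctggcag
Pkm M2 exon: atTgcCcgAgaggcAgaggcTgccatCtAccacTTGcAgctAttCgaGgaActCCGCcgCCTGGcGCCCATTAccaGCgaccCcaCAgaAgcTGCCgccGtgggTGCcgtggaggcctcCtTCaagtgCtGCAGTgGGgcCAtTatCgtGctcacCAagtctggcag

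The M2 transcript was the more abundant in every library. The M1 transcript made up 15.3, 15.5 and 17.4% on BME at day 1, 17.1, 22.7 and 17.1% at day 5, and 14.1, 13.5 and 13.9% on BME + COL1 of the Pkm FPKM. Every BME day 5 library lay above every collagen library, and the M1 share was 5.13 percentage points higher on BME (two-sided exact permutation test of 3 against 3, p = 0.1, the smallest that this design allows). Without replicate b of BME day 5 it was 3.27 points higher. The highest share belonged to replicate b of BME day 5, and the other 2 replicates, both at 17.1%, lay under the highest BME day 1 library. In absolute terms M1 had 330.4 ± 54.9, 338 ± 57.8 and 274 ± 9.37 FPKM (mean ± SD, n = 3) for BME day 1, BME day 5 and BME + COL1, and M2 had 1715 ± 139, 1445 ± 57.3 and 1709 ± 44.3. Total Pkm, the most abundant member, was not called between BME and BME + COL1 at day 5, at -0.15 (standard error 0.09, adjusted p = 0.151). Its M2 transcript taken alone was called lower on BME (-0.24, adjusted p = 0.0356 from limma). The M2 values were 1380 to 1489 FPKM on BME at day 5 and 1676 to 1760 on BME + COL1.

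The promoters of 4 members that differed in opposite directions, chosen after their values were seen, are shown next, as the 250 bases before the start of the main transcript, from mm9 and on the strand of the gene. Eno1 (chr4:149611056-149611305, plus strand) and Ldha (chr7:54100924-54101173, plus strand) were lower on BME than on BME + COL1, whereas Eno2 (chr6:124719528-124719777, minus strand) and Pdk2 (chr11:94902686-94902935, minus strand) were higher. Capitals mark ACGTG and GCGTG on either strand (CACGT and CACGC when read on the other), the core letters of a hypoxia response element, of which ACGTG also forms part of the E-box CACGTG.
Eno1: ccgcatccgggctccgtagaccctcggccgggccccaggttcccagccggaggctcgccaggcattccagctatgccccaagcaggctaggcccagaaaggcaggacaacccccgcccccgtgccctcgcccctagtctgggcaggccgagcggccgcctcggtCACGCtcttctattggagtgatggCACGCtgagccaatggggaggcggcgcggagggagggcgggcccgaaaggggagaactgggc
Ldha: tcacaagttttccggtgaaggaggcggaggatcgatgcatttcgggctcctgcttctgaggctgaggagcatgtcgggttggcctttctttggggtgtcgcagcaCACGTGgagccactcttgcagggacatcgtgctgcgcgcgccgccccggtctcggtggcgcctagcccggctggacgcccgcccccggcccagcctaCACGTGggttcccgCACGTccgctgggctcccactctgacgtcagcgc
Eno2: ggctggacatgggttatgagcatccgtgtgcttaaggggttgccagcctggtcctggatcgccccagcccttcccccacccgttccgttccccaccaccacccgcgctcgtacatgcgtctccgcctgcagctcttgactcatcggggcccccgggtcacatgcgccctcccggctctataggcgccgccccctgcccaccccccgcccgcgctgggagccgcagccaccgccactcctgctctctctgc
Pdk2: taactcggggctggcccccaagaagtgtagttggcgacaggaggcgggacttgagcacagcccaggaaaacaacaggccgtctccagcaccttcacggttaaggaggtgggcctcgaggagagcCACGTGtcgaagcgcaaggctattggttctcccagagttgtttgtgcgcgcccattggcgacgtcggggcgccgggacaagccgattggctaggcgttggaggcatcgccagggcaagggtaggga

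The Ldha window holds ACGTG 5 times, counting both strands, including 2 copies of CACGTG, each of which is read on both strands. The Pdk2 window holds 1 CACGTG, the Eno1 window GCGTG 2 times, and the Eno2 window none of these letters. Over the 48 tested members, 16 promoters (33.3%) hold ACGTG and 3 (Ldha, Pdk2 and Slc16a1) hold CACGTG, and over the 10494 promoters of tested genes the shares are 22.5% and 8.67%. GCGTG is in 29 member promoters (60.4%) and in 48.8% of all. These are counts of letters in a window and not of bound sites.

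Of the genes for glucose uptake and phosphorylation, Slc2a1 and Hk2 were lower on BME than on BME + COL1 at day 5, and Hk1 was not called. Slc2a1, the glucose carrier GLUT1, had 25.8, 27.2 and 24.4 FPKM on BME at day 1, 15.4, 13.5 and 13.6 at day 5, and 17.0, 17.1 and 17.3 on BME + COL1. Both day 5 groups lay under every day 1 library, and Slc2a1 fell between day 1 and day 5 on BME by 0.86 (standard error 0.08, adjusted p = 0.000257) on the log2 scale. It was also lower on BME than on BME + COL1 at day 5, at -0.28 (standard error 0.08, adjusted p = 0.00816), a difference that turned to 0.07 on TPM.

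Of the hexokinases, which trap glucose as glucose 6-phosphate, Hk1 was the more abundant in every library. Hk1 had 66.7, 65.6 and 70.6 FPKM on BME at day 1, 57.6, 47.4 and 56.1 at day 5, and 46.5, 47.0 and 45.0 on BME + COL1. It fell on BME with time (-0.34 (standard error 0.09, adjusted p = 0.0215)). That call was lost when any 1 of the BME day 1 libraries was left out and when only the 6 libraries compared were fitted (adjusted p up to 0.07 over the alternatives). The BME day 5 and collagen libraries did not overlap, and the difference was not called (0.21 (standard error 0.09, adjusted p = 0.0522)), although 7 of 20 alternatives called Hk1 higher on BME, among them TPM (0.56) and the fit without replicate b of BME day 5. Hk2 had 8.43, 9.22 and 6.64 FPKM on BME at day 1, 7.995, 4.38 and 6.63 at day 5, and 9.93, 10.4 and 10.2 on BME + COL1. All collagen libraries lay above all BME libraries, and Hk2 was lower on BME at day 5 by a log2 difference of -0.72 (standard error 0.20, adjusted p = 0.00783).

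As a share of the 2 hexokinases, Hk2 took 11.2, 12.3 and 8.59% on BME at day 1, 12.2, 8.46 and 10.6% at day 5, and 17.6, 18.2 and 18.5% on BME + COL1. The mean share on BME minus that on BME + COL1 at day 5 was -7.68 percentage points (exact permutation test, two-sided, p = 0.1), and the groups did not overlap. Between day 1 and day 5 on BME it did not separate (10.7% ± 1.92 and 10.4% ± 1.87, exact p = 0.7), and the sign of that difference changed when replicate b of either group was left out.

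The phosphofructokinase step commits glucose to glycolysis, and its isozymes moved apart. Gpi1, the glucose 6-phosphate isomerase that acts before it, was not called in any of the 3 comparisons. Pfkm, the muscle phosphofructokinase, had 15.3, 14.8 and 17.0 FPKM on BME at day 1, 13.2, 16.9 and 14.2 at day 5, and 7.11, 7.49 and 6.89 on BME + COL1. The collagen libraries had less than every BME library of either day, and Pfkm was 2.06-fold higher on BME at day 5 by mean FPKM (log2 difference 1.02 (standard error 0.10, adjusted p = 1.35e-05)). Pfkl, the liver form, was lower on BME (22.5 ± 3.01 against 31.9 ± 0.670 FPKM, log2 difference -0.51 (standard error 0.11, adjusted p = 0.00209)), a call that TPM did not keep (adjusted p = 0.07, the highest over the alternatives). Pfkp, the platelet form, was not called (-0.12 (standard error 0.09, adjusted p = 0.251)). Pfkm therefore made up 29.3% ± 5.37 of the phosphofructokinase FPKM on BME at day 5 and 13.4% ± 0.606 on BME + COL1 (SD, n = 3), and Pfkl 44.3% ± 3.81 and 59.5% ± 1.08.

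Aldolase splits fructose 1,6-bisphosphate into 2 trioses. Its main form, Aldoa, had 347, 319 and 319 FPKM on BME at day 1, 278, 221 and 271 at day 5, and 281, 286 and 308 on BME + COL1. It was not called between matrices at day 5 (-0.19 (standard error 0.10, adjusted p = 0.117)). The rare form Aldoc had 4.47, 3.61 and 2.36 FPKM on BME at day 1, 3.09, 6.54 and 3.04 at day 5, and 0.715, 0.454 and 0.514 on BME + COL1. All collagen libraries were under 1 FPKM and all BME libraries above 2, and Aldoc was higher on BME at day 5 by a log2 difference of 2.63 (standard error 0.32, adjusted p = 5.77e-05).

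Aldoc accounted for 1.27, 1.12 and 0.735% on BME at day 1, 1.10, 2.88 and 1.11% at day 5, and 0.253, 0.158 and 0.167% on BME + COL1 of aldolase FPKM. Replicate b of BME day 5 had more than 2 times the share of the other BME day 5 libraries. The share was 1.502 percentage points higher on BME than on BME + COL1 at day 5 (exact permutation test, two-sided, p = 0.1), and 0.912 points higher without replicate b. Days 1 and 5 on BME overlapped (exact p = 0.6).

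From triose phosphate to phosphoenolpyruvate the abundant enzymes were all lower on BME at day 5. Gapdh, which makes the first NADH of the pathway, had 1244, 1226 and 1074 FPKM on BME at day 1, 909.7, 531 and 801 at day 5, and 1659.7, 1646 and 1766 on BME + COL1. The 3 groups did not overlap, with BME day 5 the lowest and BME + COL1 the highest, and the log2 difference between matrices was -1.21 (standard error 0.18, adjusted p = 0.000179). Tpi1, Pgk1 and Pgam1, the isomerase, kinase and mutase on either side of it, showed log2 differences of -0.96, -0.90 and -0.97 (adjusted p = 0.000291, 0.000204 and 3.34e-05 from limma). Each of them had 1.85 to 1.95 times as much FPKM on BME + COL1 as on BME.

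The enolases gave the widest contrast of isozymes. Eno1, the common form, had 493, 495 and 437 FPKM on BME at day 1, 357, 238 and 331 at day 5, and 783, 774 and 817 on BME + COL1. It was lowest on BME at day 5 in every replicate and highest on BME + COL1, 2.57-fold higher there by mean FPKM (log2 difference of BME minus BME + COL1 -1.38 (standard error 0.14, adjusted p = 2.11e-05)). Eno2, the gamma form, had 3.90, 3.64 and 4.23 FPKM on BME at day 1, 5.25, 5.52 and 6.42 at day 5, and 0.182, 0.390 and 0.431 on BME + COL1. Every BME library had more than 3 FPKM and every collagen library less than 1. This was a 17.1-fold ratio of means at day 5 and a log2 difference of 3.79 (standard error 0.22, adjusted p = 6.69e-07). Eno3, the muscle form, had 2.06, 2.20 and 2.48 FPKM on BME at day 1, 1.73, 1.05 and 1.77 at day 5, and 3.30, 2.75 and 3.04 on BME + COL1. Like Eno1 it was lower on BME at day 5 (-0.98 (standard error 0.18, adjusted p = 0.000892)).

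Eno2 reached 0.782, 0.728 and 0.953% on BME at day 1, 1.44, 2.26 and 1.89% at day 5, and 0.0232, 0.0501 and 0.0525% on BME + COL1 of the enolase FPKM. None of the 3 groups overlapped. The share was 1.82 percentage points higher on BME at day 5 than on BME + COL1 and 1.04 points higher than on BME at day 1, each with an exact two-sided permutation p = 0.1. The Eno2 difference between day 1 and day 5 on BME was not called gene by gene (0.53 (standard error 0.22, adjusted p = 0.0853)), whereas Eno1 fell (-0.64 (standard error 0.14, adjusted p = 0.0121)). The Eno1 call was lost without replicate b of BME day 1 and when only the 6 libraries compared were fitted (adjusted p up to 0.06 over the alternatives).

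**Figure D2:**
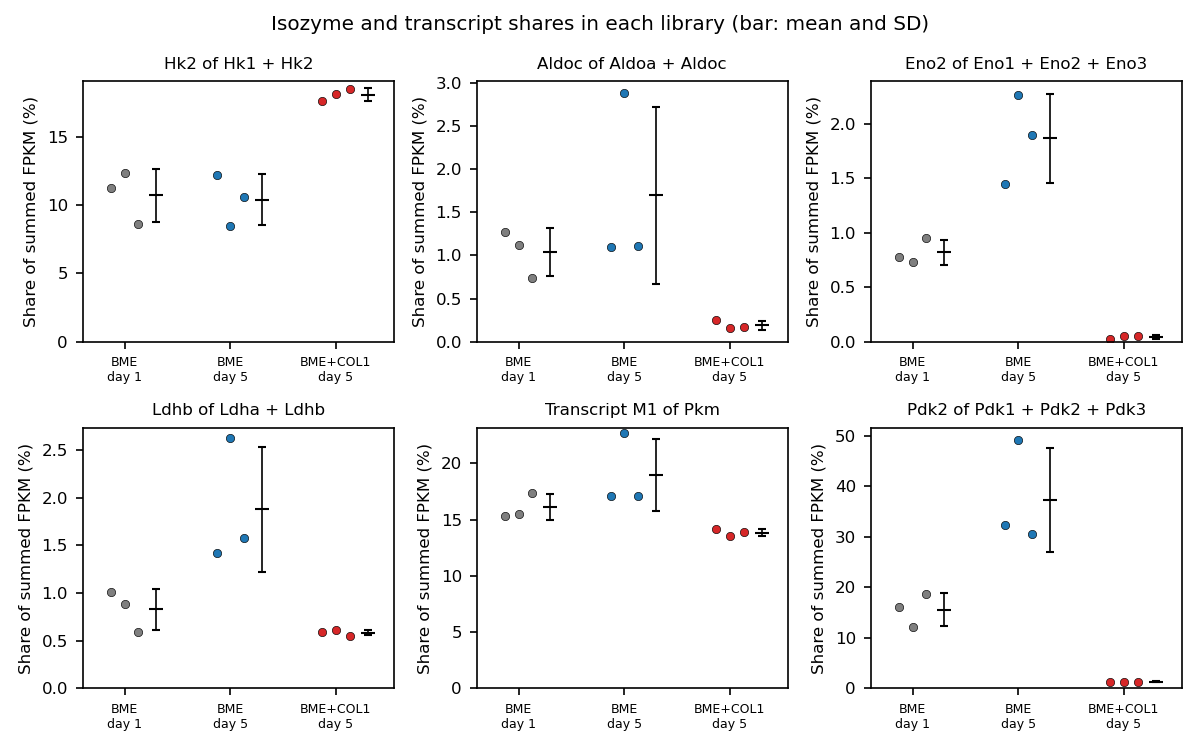
Share (percent of the summed FPKM of the family, vertical axes) of Hk2, Aldoc, Eno2, Ldhb, the M1 transcript of Pkm and Pdk2 in each library, by group. Points are replicates a, b and c and bars are the mean and SD; the collagen libraries are the highest for Hk2 and, apart from Ldhb on BME at day 1, the lowest for the other 5, and replicate b of BME day 5 has the highest share for those 5.

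Lactate dehydrogenase and the lactate carriers also separated by isozyme. Ldha, which favours lactate formation, had 341, 335 and 337 FPKM on BME at day 1, 276, 199.7 and 263 at day 5, and 539, 531 and 545 on BME + COL1. Its groups did not overlap, and BME at day 5 was lower than BME + COL1, with a log2 difference of -1.14 (standard error 0.12, adjusted p = 2.03e-05). It was also lower than BME at day 1, at -0.47 (standard error 0.12, adjusted p = 0.0188). That call was lost without replicate a or b of BME day 1 and when only the 6 libraries compared were fitted (adjusted p up to 0.08 over the alternatives). Ldhb, the form that favours pyruvate, had 3.49, 2.99 and 2.01 FPKM on BME at day 1, 3.98, 5.39 and 4.22 at day 5, and 3.22, 3.26 and 3.02 on BME + COL1. It was highest on BME at day 5, above BME + COL1 by 0.49 (standard error 0.19, adjusted p = 0.0354) and above day 1 by 0.68 (standard error 0.19, adjusted p = 0.0244). The first of these calls was lost when any collagen library, replicate b or c of BME day 5 or replicate b of BME day 1 was left out (adjusted p up to 0.11). The second was lost without replicate b of either BME group (adjusted p up to 0.09).

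Ldhb made up 1.01, 0.886 and 0.593% on BME at day 1, 1.42, 2.63 and 1.58% at day 5, and 0.594, 0.610 and 0.552% on BME + COL1 of the pair. The BME day 5 libraries were above all others, by 1.29 percentage points over BME + COL1 and 1.05 points over BME day 1 in the means (exact permutation test, two-sided, p = 0.1 for each), and replicate b was again the highest. Without it the difference from BME day 1 was 0.670 points and that from BME + COL1 0.916 points. Ldha was the main form in every library, since Ldhb stayed under 3% of the pair.

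Slc16a1, the proton-linked carrier MCT1, had 36.7, 38.0 and 37.9 FPKM on BME at day 1, 25.0, 18.6 and 22.2 at day 5, and 66.5, 66.2 and 65.5 on BME + COL1. It was the abundant lactate carrier and showed the same order of groups as Ldha, with log2 differences of -1.60 (standard error 0.10, adjusted p = 1.15e-06) between matrices and -0.78 (standard error 0.10, adjusted p = 0.00125) between days on BME, which kept their calls under every alternative. Slc16a3 (MCT4) had 3.50, 3.48 and 1.99 FPKM on BME at day 1, 3.96, 1.34 and 4.26 at day 5, and 1.39, 1.13 and 1.33 on BME + COL1. Replicate b of BME day 5 lay among the collagen libraries, and the call that Slc16a3 was higher on BME at day 5 (1.10 (standard error 0.39, adjusted p = 0.0277)) was lost when replicate a or c of BME day 5 or any collagen library was left out (adjusted p up to 0.11).

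Around pyruvate dehydrogenase, the kinases differed far more than the enzyme. Pdk2 had 2.44, 1.83 and 2.73 FPKM on BME at day 1, 4.91, 6.58 and 4.59 at day 5, and 0.266, 0.266 and 0.235 on BME + COL1. The 3 groups were apart, with BME day 5 the highest. By mean FPKM, Pdk2 was 20.9-fold higher on BME than on BME + COL1 at day 5 (log2 difference 3.92 (standard error 0.18, adjusted p = 2.29e-07)), and it rose between day 1 and day 5 on BME by 1.17 (standard error 0.18, adjusted p = 0.00276). These were the largest positive differences of any tested member in both comparisons. Pdk1, also low, had 1.25, 1.23 and 0.817 FPKM on BME at day 1, 1.87, 1.69 and 1.73 at day 5, and 0.874, 0.870 and 0.963 on BME + COL1. It was higher on BME at day 5 than on BME + COL1 (0.90 (standard error 0.17, adjusted p = 0.0011)).

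Pdk3 went the other way. It had 11.5, 12.2 and 11.1 FPKM on BME at day 1, 8.40, 5.12 and 8.75 at day 5, and 18.6, 19.3 and 18.4 on BME + COL1. BME day 5 was lowest and BME + COL1 highest, with a log2 difference of -1.37 (standard error 0.17, adjusted p = 7.05e-05) at day 5. The fall of Pdk3 with time on BME, -0.67 (standard error 0.17, adjusted p = 0.0197), was lost without replicate a or b of BME day 1 and when only the 6 libraries compared were fitted (adjusted p up to 0.08). Of the summed FPKM of these 3 kinases, Pdk2 therefore took 15.6% ± 3.32, 37.3% ± 10.3 and 1.28% ± 0.0742 (SD, n = 3) for BME day 1, BME day 5 and BME + COL1. The share of Pdk3 was 77.1% ± 2.39, 50.5% ± 10.7 and 94.2% ± 0.279. The large SD at day 5 comes from replicate b, where Pdk2 took 49.1% and Pdk3 38.2%.

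The subunits of the complex itself were close together. Pdha1 (E1 alpha) and Dlat (E2) were lower on BME at day 5, with log2 differences of -0.51 and -0.69 (adjusted p = 0.00215 and 0.000165 from limma). Pdhb (E1 beta) and Dld (E3, which the oxoglutarate dehydrogenase complex also uses) were not called, at -0.01 and -0.17. None of the 4 was called between day 1 and day 5 on BME.

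**Figure D3:**
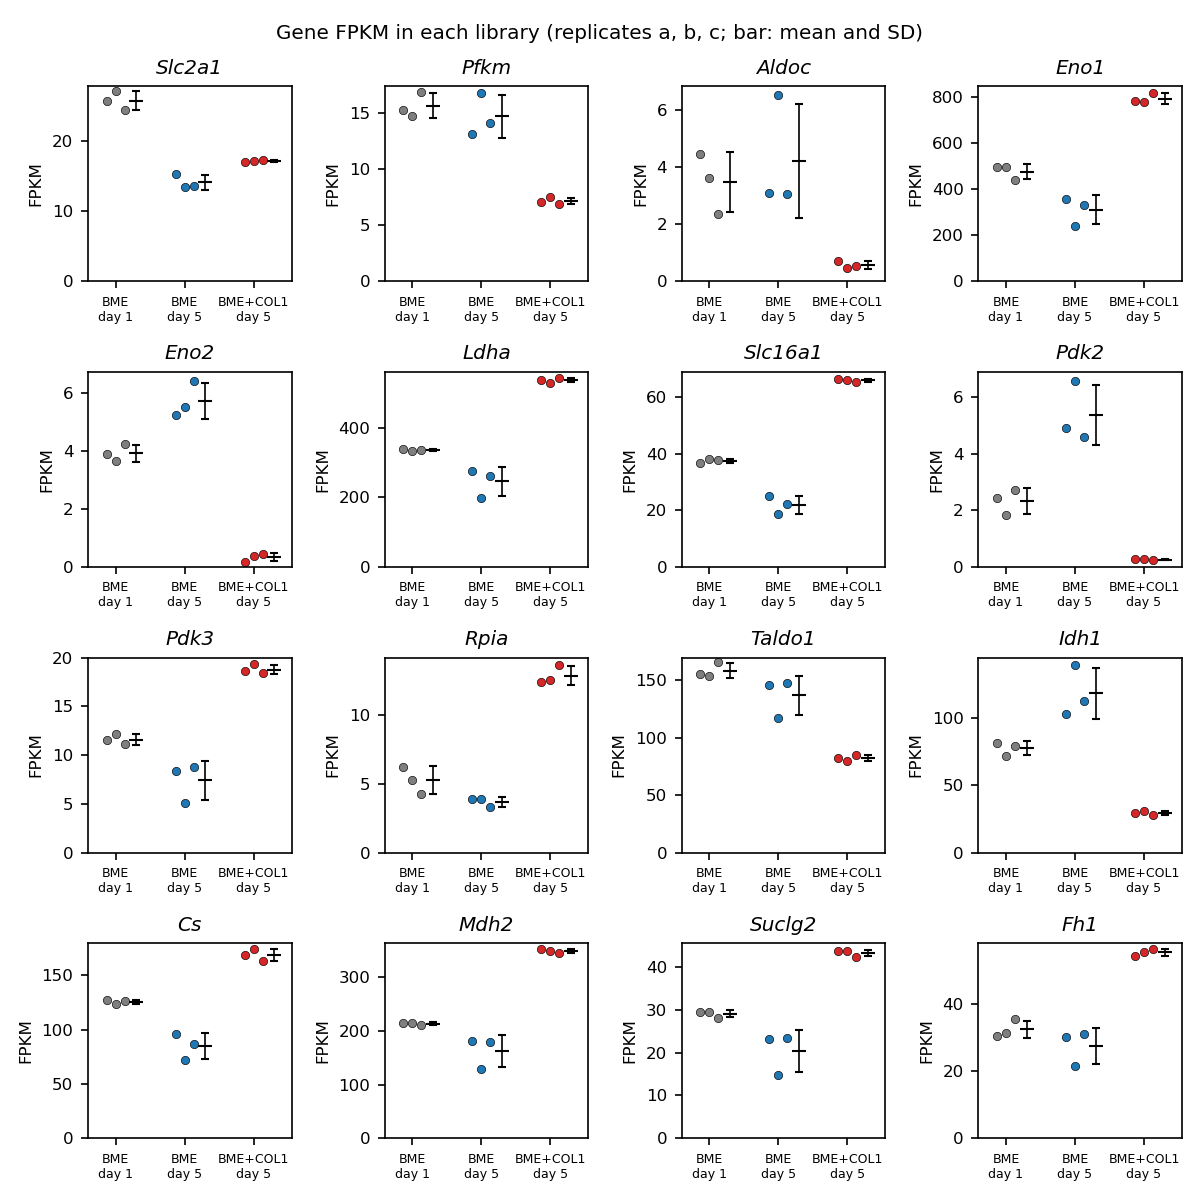
FPKM (vertical axes, from 0) of 16 members in each library, by group, with points for replicates a, b and c and a bar for the mean and SD. Eno1, Ldha, Slc16a1, Pdk3, Rpia, Cs, Mdh2, Suclg2 and Fh1 are highest on BME + COL1, Pfkm, Aldoc, Eno2, Pdk2, Taldo1 and Idh1 are lowest there, and Slc2a1 is highest on BME at day 1.

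The pentose phosphate pathway split within its non-oxidative branch. Rpia, the ribose 5-phosphate isomerase, had 6.23, 5.26 and 4.24 FPKM on BME at day 1, 3.88, 3.86 and 3.29 at day 5, and 12.3, 12.5 and 13.6 on BME + COL1. All collagen libraries lay above 12 FPKM and all BME libraries under 7, and Rpia had the most negative difference of any tested member between BME and BME + COL1 at day 5 (-1.78 (standard error 0.13, adjusted p = 2.77e-06)). Taldo1, the transaldolase that returns carbon to glycolysis, had 156, 153 and 165 FPKM on BME at day 1, 146, 117 and 148 at day 5, and 82.4, 79.8 and 84.6 on BME + COL1. It was higher on BME at day 5 (0.73 (standard error 0.10, adjusted p = 0.000123)). Tkt, the transketolase, was not called in any comparison.

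In the oxidative branch, Pgd, the 6-phosphogluconate dehydrogenase, had 144, 132 and 139 FPKM on BME at day 1, 98.9, 100.1 and 99.5 at day 5, and 73.9, 72.8 and 77.6 on BME + COL1. The groups were ordered without overlap, with day 1 highest and collagen lowest. Pgd was lower on BME at day 5 than at day 1 (-0.47 (standard error 0.07, adjusted p = 0.00238)) but higher than on BME + COL1 (0.41 (standard error 0.07, adjusted p = 0.000531)). G6pdx, which starts the branch, was not called between matrices at day 5 (-0.07 (standard error 0.10, adjusted p = 0.564)). Pgls, the lactonase between them, was slightly lower on BME (-0.30 (standard error 0.09, adjusted p = 0.0111)) but at 0.05 on TPM. Of the 6 genes, 2 were higher and 2 lower on BME than on BME + COL1 at day 5, beside 30.3% and 45.3% of all tested genes. On TPM these were 3 and 1, beside 4858 and 3327 of all 10497 tested genes. Between day 1 and day 5 on BME 0 rose and 3 (Pgd, G6pdx and Rpia) fell, beside 9.09% and 22.2% of all tested genes. On TPM and on median-ratio scaling 1 fell, Pgd, beside 2236 and 1839 of all tested genes. The fall of G6pdx was lost under 12 of 20 alternatives, among them the fits without any 1 library other than replicate b of BME day 1 and replicate a of BME day 5. That of Rpia was lost under 6, among them those without replicate a or b of BME day 1 or replicate c of BME day 5.

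The TCA cycle was the most uniform of the pathways. Of its 14 members, 13 were lower and 1 (Idh1) was higher on BME than on BME + COL1 at day 5. Over all tested genes, 45.3% were lower and 30.3% higher. The same member counts were found without replicate b of BME day 5, beside 4675 lower and 3609 higher of all 10497 tested genes. With TPM 8 members were lower and 1 higher, beside 3327 and 4858 of all genes. With median-ratio scaling the members were 13 and 1, beside 4156 and 4151 of all genes. Cs, the citrate synthase that brings acetyl-CoA into the cycle, had 127, 124 and 126 FPKM on BME at day 1, 95.7, 71.9 and 86.7 at day 5, and 168, 174 and 163 on BME + COL1. Mdh2, the mitochondrial malate dehydrogenase, had 216, 215 and 210.4 FPKM on BME at day 1, 181, 129 and 180.2 at day 5, and 353, 348 and 346 on BME + COL1. In both genes the collagen group was highest and BME day 5 lowest in every library, with log2 differences between matrices of -1.002 (standard error 0.10, adjusted p = 2.14e-05) and -1.11 (standard error 0.13, adjusted p = 3.55e-05).

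Other mitochondrial steps followed the same order to differing degrees. Suclg2, the GTP-linked beta subunit of succinyl-CoA ligase, had 29.6, 29.5 and 28.1 FPKM on BME at day 1, 23.2, 14.8 and 23.3 at day 5, and 43.8, 43.6 and 42.3 on BME + COL1. It showed a log2 difference of -1.11 (standard error 0.16, adjusted p = 0.000139) at day 5. Its ATP-linked counterpart Sucla2 had 23.3, 22.6 and 22.9 FPKM on BME at day 1, 21.9, 20.7 and 21.7 at day 5, and 26.6, 27.0 and 27.0 on BME + COL1. The difference was smaller, -0.33 (standard error 0.06, adjusted p = 0.000907), and came to 0.02 on TPM, and that of their shared alpha subunit Suclg1 was -0.68. Fh1, the fumarate hydratase, had 30.6, 31.5 and 35.5 FPKM on BME at day 1, 30.1, 21.5 and 31.1 at day 5, and 54.4, 55.6 and 56.3 on BME + COL1. It was lower on BME, at -1.03 (standard error 0.13, adjusted p = 8.90e-05). The subunits of NAD-dependent isocitrate dehydrogenase, Idh3a, Idh3b and Idh3g, had differences of -1.001, -0.79 and -0.45, and Ogdh and Dlst of the oxoglutarate dehydrogenase complex -0.31 and -0.63 (adjusted p from limma at most 0.00991). On TPM, Idh3g and Ogdh were no longer called.

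The NADP-linked and cytosolic enzymes of isocitrate and malate were not alike. Idh1, the cytosolic NADP-dependent isocitrate dehydrogenase, had 81.5, 71.4 and 78.9 FPKM on BME at day 1, 102, 139 and 112 at day 5, and 29.5, 30.5 and 27.9 on BME + COL1. All groups were apart, in the order opposite to that of Cs. Idh1 was 4.02-fold higher on BME than on BME + COL1 at day 5 by mean FPKM (log2 difference 1.99 (standard error 0.12, adjusted p = 7.04e-07)), and it rose on BME with time by 0.60 (standard error 0.12, adjusted p = 0.00676). Both calls held under every alternative. Its mitochondrial counterpart Idh2 was lower on BME at day 5 (-0.55 (standard error 0.10, adjusted p = 0.000847), not called on TPM), as was the cytosolic malate dehydrogenase Mdh1 (-0.42 (standard error 0.08, adjusted p = 0.000685), not called on TPM).

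Between day 1 and day 5 on BME, 5 TCA members fell (Cs, Idh3b, Idh3g, Suclg2 and Mdh2), 1 rose (Idh1) and 8 were not called. Among glycolytic members 10 fell, 1 (Ldhb) rose and 10 were not called, and among pyruvate dehydrogenase genes 2 (Pdk1 and Pdk2) rose and 1 (Pdk3) fell. Most of these falls were small. The total of 19 became 5 without replicate a of BME day 1, 5 without replicate b and 12 without replicate c, and 4 when only the 6 libraries compared were fitted. Calls were lost over the whole table as well. Of all 10497 tested genes, the 2327 lower became 1018, 1042, 1433 and 618 in the same order. Slc2a1, Slc16a1, Cs and Pgd fell, and Idh1 rose, under every alternative. Pdk2 rose under every alternative that tested it, which leaves out the minimum mean of 5 FPKM. The largest falls among members with a mean of at least 5 FPKM were those of Slc2a1, Slc16a1, Gapdh, Pdk3 and Eno1, of which Gapdh (-0.69 (standard error 0.18, adjusted p = 0.0196)) was not called without replicate a or b of BME day 1 (adjusted p up to 0.09). Gapdh, Pdk3 and Eno1 were not called when only the 6 libraries compared were fitted.

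Set against BME at day 1, BME + COL1 at day 5 had 11 TCA members higher, 1 (Idh1) lower and 2 not called. The largest rises among members with a mean of at least 5 FPKM were Rpia (1.29), Slc16a1 (0.82), Fh1 (0.77), Eno1 (0.74) and Mdh2 (0.71), all with an adjusted p of at most 0.0015 from limma. The largest falls were Idh1 (-1.39), Pfkm (-1.12), Taldo1 (-0.94), Pgd (-0.89) and Slc2a1 (-0.59), with an adjusted p of at most 0.000134. Below that level, Eno2 fell by 3.26, Pdk2 by 2.76 and Aldoc by 2.41 on the log2 scale. Glycolysis had 8 members higher (38.1%) and 7 lower (33.3%), near the 34.2% and 31.8% of all tested genes. The pentose phosphate pathway had 1 higher and 2 lower. On TPM these counts were 8 and 10 for glycolysis and 1 and 4 for the pentose phosphate pathway, beside 2638 higher and 4870 lower of all 10497 genes.

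The 3 pathways were compared by the median of their tested members relative to the median of all tested genes, without a test. For BME against BME + COL1 at day 5 this was -0.09 for glycolysis, 0.12 for the pentose phosphate pathway and -0.47 for the TCA cycle on the log2 scale. Without a filter they were -0.39, -0.0583 and -0.66, and with a minimum mean of 5 FPKM -0.33, 0.23 and -0.37. The median of all genes was -0.18 as reported, 0 without a filter and -0.29 with the minimum. The members' own medians stayed at -0.0583 for the pentose phosphate pathway and -0.66 for the TCA cycle under each filter. That of glycolysis was -0.28, -0.39 and -0.62 in that order, with different members tested. Relative to all genes, the pentose phosphate median was 0.0404 without replicate b of BME day 5, and that of glycolysis -0.0432 without replicate c. Glycolysis had 5 members higher (23.8%), 11 lower (52.4%) and 5 not called, beside 30.3% higher and 45.3% lower of all tested genes. On TPM 9 of them were higher and 9 lower, beside 4858 and 3327 of all 10497 tested genes. Its abundant enzymes from Tpi1 to Eno1 were among those lower on BME. Between day 1 and day 5 on BME the medians relative to all genes were -0.21, -0.14 and -0.10 for glycolysis, the pentose phosphate pathway and the TCA cycle. Without replicate b of BME day 5 they were -0.14, -0.22 and -0.0488. For BME + COL1 at day 5 against BME at day 1 they were 0.16, -0.27 and 0.40, and the first of these became -0.0279 without replicate c of BME day 1 and 0.33 without replicate a. The 2 groups compared did not overlap for 43 of 48 members between matrices at day 5 (80.1% of all tested genes), 34 between days on BME (49.9%) and 43 between BME + COL1 and BME day 1 (79.9%). Among TCA members these counts were 14, 10 and 14 of 14.

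**Figure D4:**
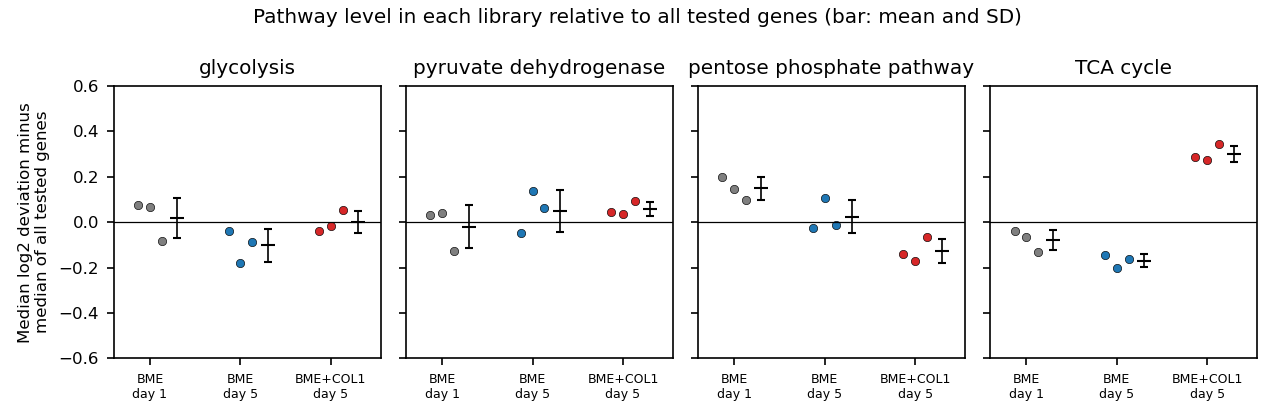
Median log2 deviation of the tested members of each pathway from their own mean over the 9 libraries, minus the same median over all tested genes (vertical axis, log2 units), in each library by group, with points for replicates and a bar for the mean and SD. The TCA cycle is at 0.27 to 0.34 on BME + COL1 and at -0.20 to -0.04 in the BME libraries, whereas the pentose phosphate pathway is lowest on BME + COL1.

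The summed FPKM tells how much of the measured mRNA these genes took. Glycolytic members together had 5334 ± 81.1 FPKM on BME at day 1, 4109 ± 445 at day 5, and 6581 ± 164 on BME + COL1 (mean ± SD, n = 3), or 1.48%, 1.24% and 1.56% of the FPKM of the library. TCA members had 888 ± 12.6, 775 ± 68.1 and 1184 ± 9.87 FPKM, or 0.247%, 0.233% and 0.281%. The pentose phosphate genes had 510.4 ± 15.7, 419.7 ± 21.0 and 369 ± 11.0 FPKM, or 0.142%, 0.127% and 0.0877%. Pkm and Gapdh supply most of the glycolytic sum, so it describes those genes more than the others.

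Other genes of the same pathways, 77 of which were found and 52 tested, gave 15 higher, 27 lower and 10 not called on BME against BME + COL1 at day 5. These are 28.8% higher and 51.9% lower, near the 30.3% and 45.3% of all tested genes. Their median was -0.04 from that of all genes, and the genes named here are those with large changes. Pdk4, a further pyruvate dehydrogenase kinase, had 6.44, 4.41 and 3.65 FPKM on BME at day 1, 3.43, 7.04 and 4.77 at day 5, and 0.0849, 0.143 and 0.0922 on BME + COL1. It had a log2 difference of 4.60 (standard error 0.28, adjusted p = 8.76e-07), which is larger than that of Pdk2. It was not called between day 1 and day 5 on BME. Pcx, the pyruvate carboxylase that refills the TCA cycle with oxaloacetate, had 3.58, 3.42 and 4.60 FPKM on BME at day 1, 7.33, 12.2 and 8.65 at day 5, and 2.23, 2.12 and 2.07 on BME + COL1. It was higher on BME at day 5 than on BME + COL1 (2.05 (standard error 0.18, adjusted p = 6.80e-06)) and than at day 1 (1.24 (standard error 0.18, adjusted p = 0.00195)). Slc2a8, the glucose carrier GLUT8, Galm, the galactose mutarotase, and Bpgm, the bisphosphoglycerate mutase, were also higher on BME at day 5, by 2.62, 2.17 and 1.94 on the log2 scale. Pdk4, Slc2a8 and Galm were under 1 FPKM in every BME + COL1 library and entered the test through their BME values.

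Lower on BME at day 5 were Prps1 and Prps2, which make phosphoribosyl pyrophosphate from ribose 5-phosphate (-1.90 and -1.02), and Rbks, the ribokinase (-1.09). So were Galk1, the galactokinase (-1.73), Pgm1, listed here on chromosome 5 (-1.06), Pfkfb1, which sets fructose 2,6-bisphosphate (-1.74), Me2, the mitochondrial malic enzyme (-1.27), and Sdhb, a subunit of succinate dehydrogenase (-1.02). The phosphoglucomutase genes did not all go this way. Pgm2, on chromosome 4, was called higher on BME (0.26, adjusted p = 0.0415 from limma), a call lost under 9 of 20 alternatives. Pfkfb1 was under 1 FPKM in every BME library and entered the test through its BME + COL1 values. Prps1 had 15.6, 16.5 and 16.4 FPKM on BME at day 1, 16.0, 8.18 and 13.3 at day 5, and 44.5, 46.0 and 44.9 on BME + COL1. The BME libraries of the 2 days overlapped and lay under all collagen libraries. Between day 1 and day 5 on BME, 5 of the 52 other pathway genes were higher (9.62%), 8 lower (15.4%) and 39 not called, beside 9.09% and 22.2% of all tested genes. Pcx was the only one of them to pass a change of 1 on the log2 scale. On BME + COL1 at day 5 against BME at day 1, 20 were higher (38.5%) and 14 lower (26.9%), beside 34.2% and 31.8% of all tested genes. Pfkfb4 (-1.16) and Slc2a6, a glucose carrier (-1.01), passed that size in this comparison alone.

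Apart from Pkm, minor transcripts that averaged at least 1 FPKM were found for Ogdh, Hk1, Aldoa and Idh1. NM_001252288 made up 4.56% ± 0.856 of Ogdh on BME at day 1, 4.99% ± 0.749 at day 5 and 7.47% ± 0.391 on BME + COL1 (SD, n = 3). Those of Hk1, Aldoa and Idh1 each took at most 4.46% of their gene in any library.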

How the data were processed

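The authors sequenced total RNA of D2.0R cells on an Illumina HiSeq after directional library preparation. Tools in the submitters' processing notes are TopHat2 2.0.8, Trimmomatic 0.30, CASAVA 1.8.4 and Partek, and the builds are mm9 and NCBIM37. The deposited values are FPKM per RefSeq transcript, written by Cufflinks for each library, whose version and handling of multiply mapped reads are not given in the sources used here. The study tested genes in Partek on alignments, which was not repeated here.

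Transcript values were added up for each gene symbol, and 10497 genes whose mean over the libraries reached 1 FPKM were tested. Values were taken as log2 after adding 0.1 FPKM. In limma 3.58.1 (R 4.3.3), 1 mean for each of the 3 groups was fitted to the 9 libraries with an intensity trend, which leaves 6 residual degrees of freedom, with two-sided p-values adjusted by Benjamini and Hochberg over all tested genes within each comparison. A difference understates the change of genes near 0.1 FPKM. Isozyme shares are the FPKM of 1 isozyme over the sum of its family, and were compared by two-sided exact permutation tests of 3 libraries against 3 (scipy 1.17.1), whose smallest p is 0.1. These 4 families and Pkm were tested in 3 comparisons, and at this size no adjustment could reach the threshold. Tables were handled with Python 3.11.15, pandas 2.3.3 and numpy 2.4.6 and drawn with matplotlib 3.10.9. The fit was tested on simulated data.

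The members, the other pathway genes and the marker lists were chosen with earlier results of these data known. All members were to be named, with values in every library for the 4 isozyme families and for the 5 largest rises and falls of each comparison among called members whose mean reached 5 FPKM, and the other pathway genes were named from a change of 1 on the log2 scale. Members shown in full beyond these, Pfkfb3, and Pgm2 of the other pathway genes, were chosen after their values were seen. Sequences were read from the NCBIM37 genome, the mm9 build of the files. It holds 21 of the 32 chromosome names of the files, and no printed sequence needed the others. Copies of a transcript were counted from alignments over at least 80% of its length at 90% identity.

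Alternatives were a pseudocount of 1 or 0.01 FPKM, a minimum mean of 5 FPKM or no filter, median-ratio scaling, TPM, dropping genes under 300 nt with the sum of each library kept, a gene's leading transcript alone, a fit of only the 6 libraries compared, no intensity trend, a replicate block, each library left out in turn, and, for shares, reads in place of FPKM. No source used here ties the replicate letters to a shared day, and they did not enter the fit.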

Additional observations from a re-analysis of the deposited data

How the results depend on the processing

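For BME against BME + COL1 at day 5, 4 members were higher with a minimum mean of 5 FPKM and 16 on TPM (10 as reported), and between day 1 and day 5 on BME 1 was higher with that minimum. Of all genes tested in these settings, 1991 of 7631, 4858 of 10497 and 585 of 7631 were higher. The 19 members lower at day 5 than at day 1 on BME became 9 without genes shorter than 300 nt, 4 with the 6 libraries compared, and 5 to 23 when 1 library was left out (5 without replicate a or b of BME day 1, 23 without replicate a of BME day 5). Over all genes, the 2327 lower became 1216 (of 10417 tested), 618, and 1018 to 3248 (both of 10497). For BME + COL1 at day 5 against BME at day 1, the lower members numbered 7 with a minimum mean of 5 FPKM and 17 on TPM. Of all genes, 2169 of 7631 and 4870 of 10497 were then lower.

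Pathway medians relative to all genes moved with the filter. For the pentose phosphate pathway and the TCA cycle the same members were tested under each filter, and only the median of all genes moved. For BME against BME + COL1 at day 5, glycolysis, the pentose phosphate pathway and the TCA cycle were at -0.39, -0.0583 and -0.66 without a filter and at -0.33, 0.23 and -0.37 with a minimum mean of 5 FPKM. Between day 1 and day 5 on BME they were at -0.30, -0.24 and -0.20 without a filter. For BME + COL1 at day 5 against BME at day 1, glycolysis was at 0.28 without a filter and 0.30 with the minimum, the pentose phosphate pathway at -0.34 with the minimum, and the TCA cycle at 0.45 and 0.33. When 1 library was left out, the pentose phosphate median ranged from 0.0404 to 0.16 between matrices at day 5 and from -0.22 to -0.11 between days on BME, the TCA median between days from -0.13 to -0.0488, and the glycolysis median of BME + COL1 against BME day 1 from -0.0279 to 0.33. The difference in Hk2 share between days on BME ranged from -1.37 to 0.668 percentage points. That in the M1 share of Pkm, an alternative added after seeing the data, ranged from 3.27 to 6.07 points between matrices at day 5 and from 1.01 to 3.81 between days on BME. The cause of the other changes was not tested.

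On TPM, 12 members changed sign between matrices at day 5. Gpi1 (0.15), Pfkp (0.22), Aldoa (0.15), Pdhb (0.33) and G6pdx (0.28) were then called higher on BME, Slc2a1 (0.0677), Pgls (0.0454), Ogdh (0.0312) and Sucla2 (0.0159) were no longer called, and Pkm (0.19), Dld (0.17) and Tkt (0.30) were not called on either scale. On TPM, 7 and 5 members that were not called changed sign in the other comparisons. TPM moved the median of all genes in this comparison from -0.18 to 0.16. With the replicate letter as a block, 10 members were higher and 29 lower between matrices at day 5, and 4 and 19 between days on BME, as without it, and 24 were higher and 11 lower for BME + COL1 against BME day 1. Of all 10497 tested genes, 3126 and 4713, 858 and 2061, and 3533 and 3275 were then higher and lower. Same-lettered libraries did not deviate together (correlations from -0.23 to 0.10), so the letters were not taken to pair them. Over all alternatives, single members lost a call 24 times between matrices at day 5, 98 times between days on BME and 36 times for BME + COL1 against BME day 1, and gained one 15, 13 and 39 times.

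Depth limits the rare isozymes most, with intervals of 14.8% to either side of member values under 5 FPKM, and in both BME groups the SD over replicates was larger than that for Aldoc, Slc16a3 and Ldhb.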
